A study of Mus musculus with 8 samples.

Results

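The effect of nutrient restriction on whole cultures of spermatogonia and their feeder cells was measured in the presence of retinoic acid (RA) across all genes. The comparison set 2 NRRA libraries against 2 RA libraries, 4 of the 8 RNA-seq libraries of the study, and both sides received 100 nM RA for 2 days. Members were chosen by treatment label, and 20477 of the 55421 genes in the count table passed a filter on low counts and were tested. The cultures, called SSC (spermatogonial stem cell) cultures, came from testes of 6-day-old C57BL/6XDBA/2 pups of the F1 hybrid background and grew on mouse embryonic fibroblast feeder cells, whose RNA can enter a library. RA cells stayed in complete SSC medium, which is supplemented with N2, basic FGF and GDNF, while the medium of NRRA cells held 10% of it and 90% Earle's balanced salt solution, so that growth factors, serum and supplements were diluted along with nutrients. The remaining 4 libraries give the same change of medium without RA, from vehicle in complete medium (Veh) to nutrient restriction alone (NR), with 2 libraries each.

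Spermatogonia are the mitotic germ cells of the testis. GDNF, acting through its receptor subunits GFRA1 and RET, and FGF2 maintain the undifferentiated state through ERK signalling and transcription factors such as ETV5 and BCL6B. RA moves these cells to differentiation, marked by the receptor KIT, and induces *Stra8*, whose product acts with MEIOSIN at the entry into meiosis. Cells short of nutrients are known to lower growth pathways, to raise autophagy and to change the transcription of metabolic genes through factors such as ATF4, FOXO and SREBP2.

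The 4 libraries held between 19261333 and 30023585 counts, and reads of the mitochondrial genome were 2.43% of the counts in both RA libraries and 2.12% and 2.19% in the NRRA libraries. Levels are given as CPM, the counts of a gene relative to the library total after TMM scaling, for replicate 1 and then replicate 2 of a condition. Replicates differed by a root mean square of 0.145 (RA) and 0.118 (NRRA) on the log2 scale over 14806 genes, while an NRRA and an RA library differed by 0.534 to 0.538. The study describes its sequencing replicates as biologically independent, and the labels do not tie a library to a culture or litter. Of the 11 tested germ cell markers 5 rose and 2 fell, with 2 rising under DESeq2, without RA replicate 1 or without NRRA replicate 2 and 1 falling without RA replicate 1 or without NRRA replicate 1, and the germ cell RNA helicase *Ddx4* was at 155 and 171 CPM in RA and 175 and 191 in NRRA. The RNA-binding protein gene *Dazl* was at 399 and 451 CPM in RA and 465 and 467 in NRRA. The summed level of the 16 fibroblast markers was 18200 and 17000 CPM in RA and 26200 and 25400 in NRRA, against 1120 and 1180 and 1250 and 1260 for the germ cell markers, so these libraries carried fibroblast RNA. Of the fibroblast markers 8 rose and 7 fell. In bulk RNA, fewer cells of a type and less RNA per cell cannot be told apart. The 11 macrophage markers summed to 261 and 238 CPM in RA and 313 and 324 in NRRA, the 8 endothelial markers to 66 and 67.6 and 58.6 and 61.7, and the 7 Sertoli cell markers to 28.2 and 30.1 and 17.9 and 16.6. Among 5 markers of Leydig and peritubular cells the sums were 75.3 and 77.6 and 894 and 895, most of it from *Acta2*.

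Under nutrient restriction with RA, 944 genes were higher and 753 lower by at least 2-fold at an adjusted p under 0.05 (edgeR quasi-likelihood F test with Benjamini-Hochberg adjustment). These were 4.61% and 3.68% of the genes tested, and they are referred to as called. Without a fold limit, 4283 genes rose (20.9%) and 3971 fell (19.4%), and below rose and fell refer to this adjusted p with any fold. The median log2 fold change over all genes tested was 0.0159. Among called genes 250 were higher and 203 lower by at least 4-fold. The RA and NRRA libraries did not overlap for 69.9% of all genes tested, so a lack of overlap alone is common here.

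The 15 called genes with the largest increases, at 50 or more counts on average, included *Sfrp4*, *Ogn* and *Ptx3*. *Sfrp4*, a secreted Wnt antagonist, was at 0.204 and 0.139 CPM in RA and 9.86 and 9.599 in NRRA, a log2 fold change of 5.84 ± 0.25 (SE, n = 2 libraries per condition here and below). *Ogn*, a small leucine-rich proteoglycan, went from 12.03 and 12.2 to 320.4 and 295 CPM (4.67 ± 0.06). *Ptx3*, a secreted pentraxin of innate immunity, was at 2.498 and 1.77 CPM in RA and 68.2 and 67.8 in NRRA (5.04 ± 0.10). In each of these genes both NRRA libraries lay far above both RA libraries, a lack of overlap that the choice of genes required. *Scel*, which encodes the cornified envelope protein sciellin, had at most 3 counts in each RA library and was at 3.86 and 3.79 CPM in NRRA, at least 29.8-fold higher against 3 counts per library. The other 11 were *Sprr3* (5.098), *Aspn* (5.07), *Lrrc17* (4.45), *Grpr* (4.26), *Ccl20* (4.08), *Rtl3* (4.07), *Ptn* (4.01), *Acta2* (3.999), *Kng1* (3.87), *Adamts5* (3.82) and *Rgs4* (3.63).

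The 15 largest decreases by the same rule included *Mmp10*, *Stc1* and *Serpinb2*. *Mmp10*, a stromelysin that cleaves matrix proteins, fell from 70.2 and 73.5 CPM in RA to 2.07 and 1.89 in NRRA (-5.18 ± 0.10). *Stc1*, a secreted glycoprotein hormone gene, fell from 46.2 and 43.5 to 2.501 and 1.77 CPM (-4.400 ± 0.11). *Serpinb2*, the plasminogen activator inhibitor 2 gene, fell from 176 and 179 to 10.3 and 9.86 CPM (-4.14 ± 0.08). The RA libraries were high and the NRRA libraries low in all 3, and the choice of genes required that they do not overlap. *Lce3a*, a late cornified envelope gene, was at 3.87 and 5.13 CPM in RA and had 0 counts in both NRRA libraries, at least 44.3-fold lower against 3 counts per library. The remaining log2 fold changes were *Sprr2h* (-5.99), *Lce1f* (-5.72), *Prl3d2* (-5.17), *Gm41192* (-4.65), *Chrna1* (-4.37), *Plet1* (-4.33), *Gm48284* (-4.300), *Egr3* (-3.85), *Gm42793* (-3.79), *Sema7a* (-3.72) and *Entpd1* (-3.67). Of these, *Gm41192* overlaps *Stc1* and *Gm42793* overlaps *Spp1*, so their reads may be shared.

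**Figure D1:**
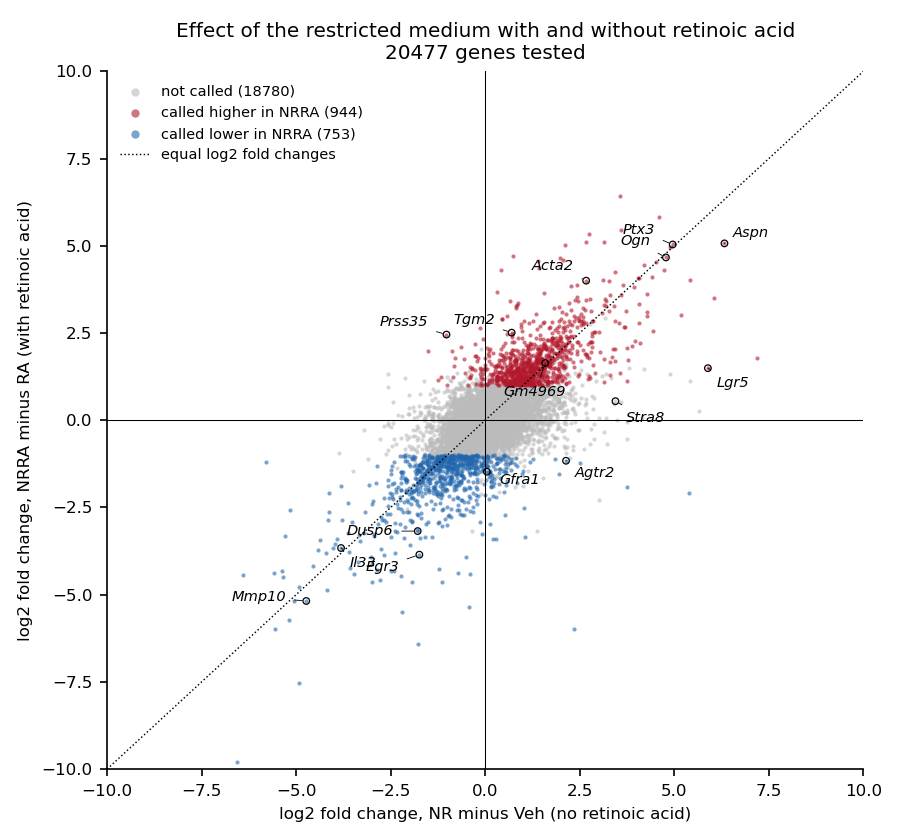
Log2 fold change of each of the 20477 tested genes, NRRA minus RA on the vertical axis and NR minus Veh on the horizontal axis, with the 944 genes called higher in NRRA in red and the 753 called lower in blue. *Ogn*, *Ptx3* and *Mmp10* lie near the dotted line of equal effects, while *Stra8*, *Lgr5* and *Agtr2* lie far to the right of it and *Gfra1* below it at a horizontal value near 0.

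The genes downstream of GDNF and FGF fell almost throughout. Of 27 tested genes of this response, 25 fell and 2 rose, 19 and 2 of them by at least 2-fold, with a median log2 fold change of -1.47. *Dusp6*, the phosphatase that ERK signalling induces and that inactivates ERK, was at 142 and 136 CPM in RA and 16.04 and 14.6 in NRRA (-3.18 ± 0.06, edgeR adjusted p = 5.66e-24). *Etv5*, an ETS transcription factor of stem cell self-renewal, was at 101 and 103 CPM in RA and 28.5 and 27.3 in NRRA (-1.87 ± 0.06). For both genes the NRRA libraries lay below the RA libraries with no overlap. The ERK feedback inhibitor *Spry4* fell by 2.32 on the log2 scale, the phosphatase gene *Dusp4* by 2.24 and the ETS factor *Etv4* by 2.12. *Bcl6b* and *Lhx1*, transcription factor genes known to respond to GDNF, fell (-1.89 and -1.22), as did *Nefm*, a neurofilament subunit gene (-2.55). *Ier3*, an immediate early gene, fell from 106 and 107 to 14.5 and 14.2 CPM (-2.895). The list summed to 1680 and 1670 CPM in RA and to 622 and 632 CPM in NRRA. Genes induced by ERK, such as *Dusp6* and *Ier3*, are not particular to germ cells, fibroblast markers were higher in sum in NRRA while 8 rose and 7 fell, and the part of feeder cells in the result was not tested.

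The exceptions were *Id4* and *Spry1*. *Id4*, an inhibitor of basic helix-loop-helix factors found in stem cells, rose from 4.23 and 3.78 CPM in RA to 14.6 and 15.8 in NRRA (1.94 ± 0.12). In the cultures without RA it was at 14.7 and 13.9 CPM in Veh and 19.5 and 22.2 in NR. *Spry1*, another Sprouty family member, rose from 12.6 and 12.3 to 29.5 and 32.5 CPM (1.32), with the reservation that 24.4% of its exon bases overlap *Gm42922* on the opposite strand.

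For most genes of the GDNF and FGF response the effect of the medium was more negative with RA than without it. Without RA, in NR against Veh, 22 of the 27 genes fell and 1 rose, with a median of -0.818, where 22.2% of all genes tested fell and 21.7% rose. In the interaction test, which compares the NRRA to RA fold change with the NR to Veh fold change, 17 genes had a more negative and 3 a more positive effect with RA. *Dusp6* changed by -1.79 without RA, a difference of -1.39 ± 0.08. *Etv5* changed by -0.70 without RA (difference -1.18 ± 0.08). *Egr4*, an early growth response factor gene, was at 121 and 93.2 CPM in Veh and 109 and 122 in NR, against 48.8 and 46.3 in RA and 17.3 and 16.8 in NRRA (difference -1.59 ± 0.12). The share of all genes tested with any difference between the effects was 6.37% for a more positive and 6.58% for a more negative effect with RA.

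Genes listed for undifferentiated spermatogonia fell more often than they rose. Of 29 tested, 16 fell and 7 rose, 11 and 3 by at least 2-fold, with a median of -0.362, and 3 to 4 rose with DESeq2 or without RA replicate 1, RA replicate 2 or NRRA replicate 2. The 3 called higher were *Id4*, *Sox3* and *Neurog3*. The list shares members with that of the GDNF and FGF response, among them *Etv5*, *Bcl6b*, *Lhx1* and *Id4*. *Gfra1*, the GDNF receptor subunit, was at 76.9 and 74.6 CPM in RA and 27.8 and 26.6 in NRRA (-1.48 ± 0.06), with all NRRA values below all RA values. Without RA it was at 101 and 101 CPM in Veh and 108 and 100.4 in NR, a log2 fold change of 0.04 ± 0.05 that did not pass the test (edgeR adjusted p = 0.536), and the 2 effects differed by -1.52 ± 0.08. *Ret*, its partner receptor, fell by 0.72 on the log2 scale. *Upp1*, a uridine phosphorylase gene, fell by 2.56 and the T-box factor gene *Eomes* fell by 2.03. The germ line factor gene *Sox3* rose from 17.1 and 15.8 to 45.5 and 43.4 CPM (1.44 ± 0.07). The study describes its expression as limited to spermatogonia that are committed to differentiation. *Zbtb16*, which encodes PLZF, was at 31.8 and 31.8 CPM in RA and 35.7 and 35.2 in NRRA (0.16 ± 0.06, edgeR adjusted p = 0.0499), and missed the test with DESeq2, with its size factors in edgeR, with an average of 50 or more counts, with the replicate number as a block (0.16, edgeR adjusted p = 0.0561) and without any 1 of the RA, NR or NRRA libraries (0.14 to 0.17). *Pou5f1*, the pluripotency factor OCT4, was at 13.1 and 11.2 CPM in RA and 10.9 and 10.8 in NRRA and did not pass the test. *Neurog3*, a factor gene of early progenitors, was near the detection limit, at 0 and 0.0347 CPM in RA and 0.179 and 0.257 in NRRA. *Pou2f2*, a POU factor gene, changed by 0.44 ± 0.11 and *Bcl11a*, a zinc finger factor gene, by 0.08 ± 0.21.

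Genes of the differentiation list changed without a common direction, with 8 of 22 rising and 6 falling. The median was 0.0671 (0.107 without RA replicate 1 and 0.0395 once a dependence on GC content and length was removed). The list shares *Stra8*, *Sohlh1* and *Sohlh2* with that of meiotic entry. It shares *Ccnd2*, which fell, with that of undifferentiated spermatogonia, and *Ccnd1*, which fell, with those of D-type cyclins and Wnt targets. *Kit*, the receptor that marks differentiating spermatogonia, was at 212 and 203 CPM in RA and 359 and 357 in NRRA (0.79 ± 0.04), and the NRRA libraries were the highest of all 8. *Sohlh1*, a helix-loop-helix factor of differentiation, rose from 22.1 and 25.4 to 42.5 and 46.04 CPM (0.89 ± 0.07). Its partner *Sohlh2* was at 162 and 156 CPM in RA and 149 and 155 in NRRA and did not pass the test. The zinc finger factor gene *Sall1* fell from 46.6 and 43.5 to 15.2 and 16.2 CPM (-1.51 ± 0.07). *Dmrtb1*, which encodes a factor of the mitosis to meiosis transition, fell by 1.13 with RA and rose by 0.67 without it (difference -1.796 ± 0.28). Cyclin D1, *Ccnd1*, fell from 1001 and 974 to 284 and 289 CPM (-1.79 ± 0.04), and the effect without RA was -1.78.

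**Figure D2:**
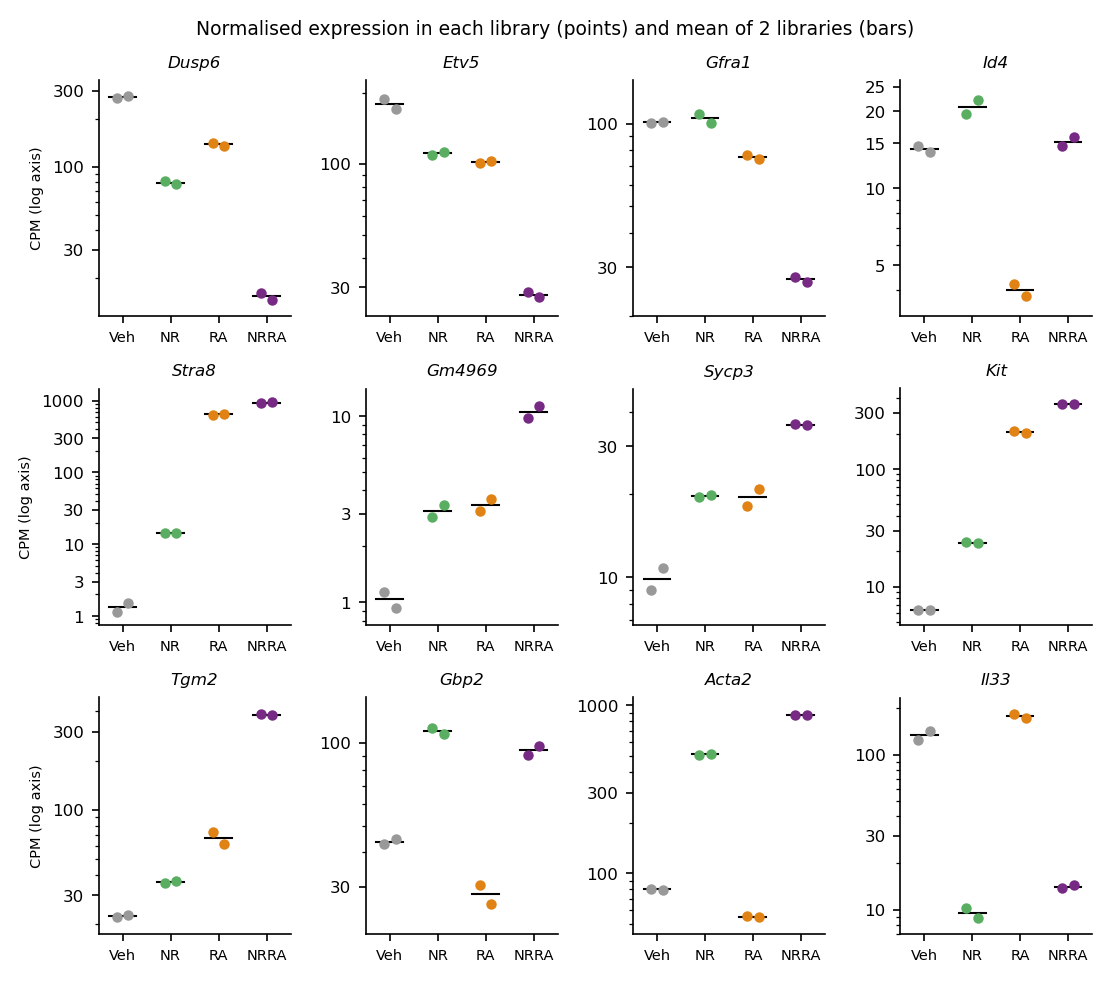
Level of 12 genes in each library, as CPM on a log axis, with Veh, NR, RA and NRRA from left to right and 1 point per library. *Dusp6*, *Etv5* and *Gfra1* are lowest in NRRA, *Stra8* and *Kit* are high in both RA and NRRA and highest in NRRA, and *Tgm2*, *Gm4969* and *Acta2* are highest in NRRA.

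Of 17 tested genes of meiotic entry, 9 rose, 1 fell and 7 did not pass the test, 1 and 0 of them were called higher and lower, and the median was 0.138 (0.226 without RA replicate 2). Of these genes *Dazl*, *Ddx4* and *Mael* (0.13, 0.17 and 0.14), which rose, and *Tex101*, which fell, were also counted as germ cell markers. *Stra8*, *Sohlh1* and *Sohlh2* were also counted in the differentiation list. *Gm4969*, which encodes MEIOSIN, the partner of STRA8, was at 3.11 and 3.61 CPM in RA and 9.79 and 11.3 in NRRA (1.64 ± 0.14, edgeR adjusted p = 1.84e-10). It was at 1.14 and 0.938 CPM in Veh and 2.89 and 3.34 in NR, so that the effect without RA was 1.59 ± 0.24 and the difference between the effects 0.05 ± 0.32 did not pass the test. *Stra8*, the RA-induced gatekeeper of meiotic entry, was at 632 and 653 CPM in RA and 917 and 958 in NRRA (0.55 ± 0.04). Without RA it was at 1.14 and 1.51 CPM in Veh and 14.6 and 14.3 in NR (3.44 ± 0.14), and the log2 fold change with RA less that without was -2.899 ± 0.15. *Zfp541*, a zinc finger gene of spermatocytes, was at 2.29 and 3.23 CPM in RA and 5.75 and 4.69 in NRRA (0.88 ± 0.17). *Rec8*, the meiotic cohesin subunit, was at 77.99 and 77.4 CPM in RA and 76.6 and 76.1 in NRRA, and *Ugt8a* at 13.97 and 15.2 CPM in RA and 13.9 and 15.4 in NRRA. Neither passed the test.

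The chromosome axis and synapsis list had 9 of 17 genes rising, 0 falling and 0 called, with a median of 0.219. *Sycp3*, the lateral element protein of the synaptonemal complex, was at 18.2 and 21.01 CPM in RA and 36.02 and 35.8 in NRRA (0.86 ± 0.08), and the effect without RA was 0.99 ± 0.10. Of *Sycp3*, 52.2% of its exon bases overlap *Chpt1* on the opposite strand. The cohesin subunit *Smc1b* rose from 108 and 125 to 180.2 and 172 CPM (0.59 ± 0.05) and *Stag3* from 219 and 218 to 304 and 301 CPM (0.47 ± 0.04). For these genes every NRRA library was above every RA library. *Hormad1*, an axis protein gene, rose by 0.37 and the cohesin gene *Rad21l* by 0.37 on the log2 scale. *Sycp1*, the transverse filament of the complex, was at 73.9 and 102 CPM in RA and 108 and 100.5 in NRRA (0.23 ± 0.08), so that the libraries overlapped. None of *Sycp1*, *Hormad1* and *Rad21l* passed the test with DESeq2 or without RA replicate 1, where the log2 fold changes were 0.03, 0.19 and 0.19. The test was also missed without NRRA replicate 1 by *Sycp1* (0.18) and *Rad21l* (0.33), without NRRA replicate 2 by *Hormad1* (0.27) and *Rad21l* (0.41), and without either NR library by *Sycp1* (0.21) and *Rad21l* (0.35).

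Of 28 tested genes of meiotic break formation and recombination, 10 rose, 1 fell and 0 were called, with a median of 0.232. *Mei1*, required for meiotic breaks, was at 6.78 and 6.59 CPM in RA and 11.8 and 13.9 in NRRA (0.95 ± 0.11). *Tex15*, a germ cell gene of break repair and transposon silencing, rose from 148 and 189 to 288 and 255 CPM (0.68 ± 0.07). The meiotic recombinase *Dmc1* rose from 12.8 and 15.7 to 19.5 and 20.96 CPM (0.49 ± 0.09). *Spo11*, the enzyme that makes the breaks, was at 2.55 and 2.05 CPM in RA and 2.75 and 1.702 in NRRA, and *Msh5*, a crossover factor gene, at 6.07 and 5.13 CPM in RA and 6.25 and 6.97 in NRRA; neither passed the test. The helicase gene *Hfm1* rose by 0.52 and the break formation genes *Ankrd31* and *Ccdc36* by 0.50 and 0.49. Without RA, 11 genes of the entry list, 9 of the axis list and 8 of the recombination list rose (medians 0.362, 0.334 and 0.161), and the effect with RA was more negative for 5, 4 and 1 genes and more positive for 1, 1 and 2. *Hfm1* missed the test with DESeq2, without RA replicate 1 (0.38) and without NRRA replicate 2 (0.47). In the entry list 5 genes rose without RA replicate 1 or without NRRA replicate 2, in the axis list 5 without RA replicate 1, and in the recombination list 6 without NRRA replicate 1. With DESeq2, 6 genes of the entry list, 4 of the axis list and 5 of the recombination list rose, and once a dependence on GC content and length was removed the 3 medians were 0.0224, 0.154 and 0.149, with 2 genes of the entry list and 3 of the recombination list falling.

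The piRNA pathway, which silences transposons in germ cells, had 11 of 22 genes rising and 2 falling, with a median of 0.108. Without RA replicate 1 the median was 0.0647 and 0 fell, 1 fell without any other of the 4 libraries, and with the GC and length dependence removed the median was 0.0528 and 4 fell. *Pld6*, a mitochondrial factor of piRNA production, rose by 0.98 ± 0.11, the RNA methyltransferase gene *Henmt1* by 0.82 and *Piwil2* by 0.49. *Dnmt3l*, a cofactor of DNA methylation, fell by 0.64, but missed the test with DESeq2 and without RA replicate 1 (-0.58), RA replicate 2 (-0.73) or NRRA replicate 2 (-0.46). Of 19 late spermatocyte and spermatid genes, 9 were below the count filter, 1 of the 10 tested rose (the heat shock gene *Hspa2*, 0.46) and 1 fell (the transcription factor gene *Crem*, -0.60).

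Retinoid genes responded to the medium even though RA was present on both sides. Of 29 tested, 12 rose and 9 fell, 4 and 6 of them by at least 2-fold, with a median of 0.145. *Tgm2*, the RA-inducible transglutaminase, was at 72.7 and 61.6 CPM in RA and 383 and 377 in NRRA (2.51 ± 0.06), against 21.99 and 22.6 CPM in Veh and 35.6 and 36.8 in NR. The effect with RA exceeded that without RA by 1.81 ± 0.10, and the NRRA libraries were the highest of all 8. *Crabp2*, a carrier of RA to its nuclear receptor, was at 25.4 and 24.2 CPM in RA and 60.9 and 63.2 in NRRA (1.33 ± 0.06, difference 1.46). *Lrat*, which stores retinol as esters, rose by 1.497.

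Other retinoid genes were lower. *Stra6*, the retinol uptake receptor, fell from 38.6 and 37.1 to 14.5 and 14.1 CPM (-1.41 ± 0.09), *Dhrs9*, a retinol dehydrogenase gene, fell by 1.97, and *Rxrg*, a retinoid X receptor gene, fell by 1.72. The homeobox gene *Hoxb1*, a direct RA target, fell by 1.62. *Cyp26b1*, which degrades RA, was at 713 and 648 CPM in RA and 588 and 582 in NRRA (-0.22 ± 0.04), against 125 and 119 in Veh and 36.8 and 34.97 in NR (difference 1.55 ± 0.07). The receptor genes *Rara*, *Rarb* and *Rarg* had log2 fold changes of 0.24, 0.24 and 0.30.

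**Figure D3:**
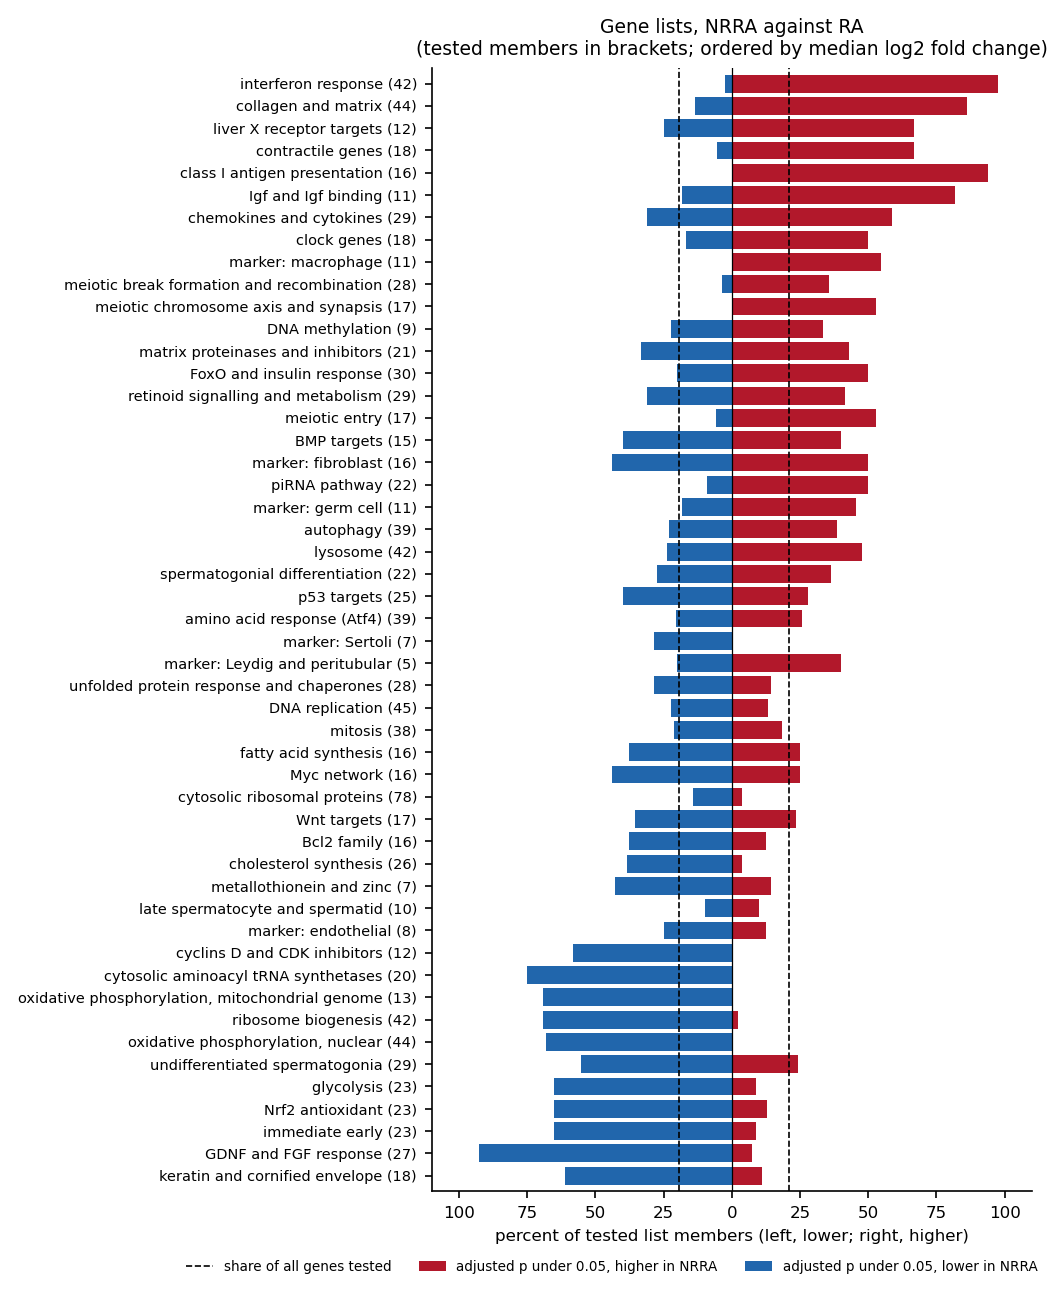
Percent of the tested members of each gene list that rose (right, red) or fell (left, blue) in NRRA against RA at an adjusted p under 0.05, with lists ordered by their median log2 fold change. The dashed lines mark the same share over all 20477 genes, 20.9% and 19.4%, and 41 of 42 interferon response genes rose while 25 of 27 genes of the GDNF and FGF response fell.

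Most tested genes of glycolysis, oxidative phosphorylation and ribosome biogenesis fell by small amounts. Of 23 glycolytic genes 15 fell and 2 rose, with a median of -0.381, and 0 to 1 rose without any 1 of the 4 libraries. *Pkm*, pyruvate kinase, was at 1173 and 1096 CPM in RA and 642 and 635 in NRRA (-0.83 ± 0.04). The glucose transporter *Slc2a1* fell by 0.75, the phosphofructokinase gene *Pfkp* by 0.75 and *Gapdh* by 0.63. Of 44 nuclear genes of oxidative phosphorylation 30 fell and 0 rose (median -0.186), led by cytochrome c, *Cycs* (-0.57), and of 13 genes of the mitochondrial genome 9 fell and 0 rose (median -0.172). With DESeq2, 27 of the nuclear and 8 of the mitochondrial genes fell. Without any 1 of the 4 libraries compared, the medians lay between -0.198 and -0.165 and between -0.196 and -0.129. Ribosome biogenesis had 29 of 42 genes falling and 1 rising (median -0.186), including the small subunit processome gene *Rrp9* (-0.49) and the RNA polymerase I subunit gene *Polr1b* (-0.34). Of 78 cytosolic ribosomal protein genes 11 fell and 3 rose, below the share of all genes tested in both directions, and 64 did not pass the test (median -0.0406, and -0.0266 and -0.0229 without RA replicate 1 and NRRA replicate 1). Without NRRA replicate 2, 19 ribosome biogenesis genes and 5 ribosomal protein genes fell, and 6 of the latter fell without RA replicate 1 or without NRRA replicate 1. A single ribosomal protein gene rose without RA replicate 2 or without either NRRA library, and 22 fell with DESeq2 size factors in edgeR. Once the dependence on GC content and length was removed, 25 ribosomal protein genes fell and 9 rose.

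Amino acid genes did not follow one direction. Of 20 cytosolic aminoacyl tRNA synthetase genes, which charge tRNAs and many of which ATF4 induces, 15 fell and 0 rose (median -0.171, with 9 falling without NRRA replicate 2), among them *Rars* (-0.43) and *Sars* (-0.30). Of 39 genes of the amino acid response through ATF4, 10 rose, 8 fell and 21 did not pass the test (median 0.0284, 0.00121 without RA replicate 2, -0.0304 without NRRA replicate 1 and 0.00145 with the GC and length dependence removed). These counts were near the share of all genes tested, of which 20.9% rose and 19.4% fell. *Pycr1*, an enzyme of proline synthesis, rose by 1.14, and the amino acid carrier gene *Slc1a4* by 0.83. The cystine transporter *Slc7a11* fell from 23.6 and 22.6 to 9.43 and 8.93 CPM (-1.33 ± 0.09). *Atf4* itself was at 97.97 and 93.9 CPM in RA and 108 and 107 in NRRA (0.16 ± 0.05). Within the Myc network of 16 genes, 7 fell and 4 rose, and *Odc1*, ornithine decarboxylase of polyamine synthesis, fell from 358 and 358 to 88.4 and 91.6 CPM (-1.99 ± 0.04).

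Among 30 genes of the FoxO and insulin response, 15 rose and 6 fell, with a median of 0.164 (0.0943 with the GC and length dependence removed). *Fbxo32*, the ubiquitin ligase atrogin-1 of muscle wasting, was at 14.5 and 13.2 CPM in RA and 70.00 and 66.7 in NRRA (2.31 ± 0.07). *Tnfsf10*, the death ligand TRAIL, rose by 2.000 but missed the test with DESeq2 and without RA replicate 1 (1.74). The starvation-responsive factor gene *Klf15* rose by 1.45 and the gluconeogenic gene *Pck2* by 0.69. *Cited2*, a transcriptional coregulator gene, fell by 1.195. Of 39 autophagy genes 15 rose and 9 fell (median 0.0713), and 1 was called, *Atg9b*, which fell by 1.197. The autophagy median was 0.0419 without RA replicate 2, 0.0389 with 5 genes falling without NRRA replicate 2, and -0.00928 with the GC and length dependence removed. *Ulk1*, the kinase that starts autophagy, rose by 0.39 ± 0.06, the autophagy receptor genes *Calcoco2* and *Bnip3* rose by 0.78 and 0.63, and *Becn1* was at 114 and 113 CPM in RA and 115 and 119.8 in NRRA. *Calcoco2* missed the test with DESeq2 and without RA replicate 2 (0.56), NRRA replicate 1 (0.84), NRRA replicate 2 (0.70) or either NR library (0.76). Of 42 lysosome genes 20 rose, 10 fell and 0 were called (median 0.0691, 0.119 without RA replicate 1 and 0.0435 without RA replicate 2), among them cathepsin F, *Ctsf* (0.94), and cathepsin L, *Ctsl* (-0.79). Lysosome genes had a median of -0.106 without RA, with 11 rising and 15 falling, and 12 had a more positive and 0 a more negative effect with RA.

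The effect on 11 of 26 cholesterol synthesis genes was more positive with RA than without it, and on 0 more negative. Of the 26 tested genes 10 fell and 1 rose in NRRA against RA (median -0.117, with 6 falling without RA replicate 1 and 16 with the GC and length dependence removed), while 20 fell and 1 rose in NR against Veh (median -0.364). *Acat2*, at the start of the pathway, was at 55.4 and 56.5 CPM in RA and 50.1 and 51.4 in NRRA (-0.14, difference 0.46 ± 0.09). A form of the sterol regulatory element, TCACNCCAC, was present on either strand of the window from 250 bases before to 50 after a start in 1 of 18 list members with a sequence (5.56%) and in 1.46% of all tested genes with one. The member that carries it neither rose nor fell in NRRA against RA. Of 12 liver X receptor targets 8 rose and 3 fell (median 0.779). The cholesterol exporter *Abca1* rose from 102 and 99.97 to 245 and 251 CPM (1.296 ± 0.06), the lipoprotein lipase gene *Lpl* by 1.87 and the receptor gene *Nr1h3* by 1.04. The small GTPase gene *Arl4c* fell by 1.53. Of 16 fatty acid synthesis genes 6 fell and 4 rose, and *Scd1*, the stearoyl-CoA desaturase, fell from 192 and 178 to 90.5 and 90.9 CPM (-1.03 ± 0.05).

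Most antioxidant genes of the NRF2 pathway fell. NRF2, encoded by *Nfe2l2*, binds antioxidant response elements in promoters of enzymes that handle peroxides and thiols. Of 23 tested genes 15 fell and 3 rose, 4 and 1 by at least 2-fold, with a median of -0.485. *Srxn1*, sulfiredoxin, was at 193 and 192 CPM in RA and 64.3 and 55.6 in NRRA (-1.68 ± 0.06). *Nqo1*, the quinone reductase, fell from 23.3 and 24.9 to 7.33 and 7.93 CPM (-1.66 ± 0.09) and *Hmox1*, heme oxygenase, from 212 and 205 to 87.6 and 86.01 CPM (-1.26 ± 0.05). In all 3 genes the NRRA libraries lay below the RA libraries. *Gstm1*, a glutathione transferase gene, went the other way, from 17.5 and 17.2 to 44.5 and 44.6 CPM (1.36 ± 0.07). *Nfe2l2* fell by 0.36, and *Keap1*, its inhibitor, was at 42.6 and 44.4 CPM in RA and 48.2 and 48.00 in NRRA. The effect was more positive with RA than without for 9 of the 23 genes and more negative for 1, with a median of -0.532 without RA.

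The motif of the antioxidant response element was found near the start of several of these genes, and the 2 sequences shown are those of thioredoxin reductase, *Txnrd1*, and peroxiredoxin, *Prdx1*. They are the 250 bases before an annotated transcription start, from RefSeq on GRCm38.p6, 5′ to 3′ on the gene's strand, and capitals mark TGACNNNGC or its reverse complement.
Txnrd1 (chr10:82858956-82859205, plus strand, 1 of 3 annotated starts): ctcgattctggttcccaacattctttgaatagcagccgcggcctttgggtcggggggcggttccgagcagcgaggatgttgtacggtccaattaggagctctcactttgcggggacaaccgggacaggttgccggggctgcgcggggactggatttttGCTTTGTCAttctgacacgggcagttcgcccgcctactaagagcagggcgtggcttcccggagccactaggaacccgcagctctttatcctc
Prdx1 (chr4:116685349-116685598, plus strand): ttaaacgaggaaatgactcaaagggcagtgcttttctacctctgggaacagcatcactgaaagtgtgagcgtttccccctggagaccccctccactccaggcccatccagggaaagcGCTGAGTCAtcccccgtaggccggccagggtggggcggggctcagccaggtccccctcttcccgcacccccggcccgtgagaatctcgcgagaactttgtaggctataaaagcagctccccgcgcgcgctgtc
The motif starts 92 bases before the start of *Txnrd1* and 133 bases before that of *Prdx1*. *Txnrd1* was at 342 and 352 CPM in RA and 189.7 and 184 in NRRA (-0.89 ± 0.04), and *Prdx1* at 563 and 561 CPM in RA and 386 and 389.8 in NRRA (-0.53 ± 0.04). In windows from 250 bases before to 50 after a start, searched on both strands, TGACNNNGC was present in 8 of the 19 list members with a sequence (42.1%), of which 6 fell, in 16.6% of all 13288 tested genes with a window and in 12.4% of all 32851 windows. Of all 23 tested list members, with or without the motif, 15 fell. The metallothionein genes *Mt1* and *Mt2*, which bind zinc and copper, fell from 158 and 147 to 60.9 and 65.5 CPM and from 231 and 221 to 83.2 and 82.03 CPM (-1.27 and -1.45). Of the 7 tested metallothionein and zinc genes 3 fell and 1 rose.

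The interferon response rose almost as a whole. Interferons induce antiviral genes through interferon-stimulated response elements in their promoters. Of 42 tested genes 41 rose and 1 fell, 22 and 0 of them by at least 2-fold, with a median of 1.01, and NR against Veh gave 40 higher and 1 lower with a median of 0.879. *Iigp1*, an immunity-related GTPase, was at 37.9 and 31.9 CPM in RA and 122 and 143 in NRRA (1.93 ± 0.08). *Ifitm1*, an interferon-induced membrane protein, was at 2.804 and 2.12 CPM in RA and 7.75 and 8.96 in NRRA (1.801 ± 0.15), and *Irf7*, the amplifying transcription factor, at 147 and 129.9 CPM in RA and 286 and 299 in NRRA (1.08 ± 0.06). The NRRA libraries were above the RA libraries in each. *Irf9* rose by 0.35 and *Irf1* by 0.21 on the log2 scale, and *Irf1* missed the test without RA replicate 2 (0.15). Of the 11 macrophage markers 6 rose and 0 fell, and neither their part in the result nor that of feeder cells was tested.

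Upstream sequences of 3 interferon response genes are shown, chosen from the members that carry the motif of the interferon-stimulated response element. *Iigp1*, *Ifit3b* and *Ifitm1* rose more and are not shown. The sequences come from the same source and in the same format, and capitals mark TTTC, any 2 bases and TTTC again, or the reverse complement.
Gbp2 (chr3:142620413-142620662, plus strand): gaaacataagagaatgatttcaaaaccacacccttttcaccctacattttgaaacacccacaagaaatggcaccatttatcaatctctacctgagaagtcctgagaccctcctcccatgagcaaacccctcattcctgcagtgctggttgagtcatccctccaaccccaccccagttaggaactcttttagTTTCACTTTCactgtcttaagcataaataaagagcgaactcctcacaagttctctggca
Gbp3 (chr3:142559794-142560043, plus strand, 1 of 2 annotated starts): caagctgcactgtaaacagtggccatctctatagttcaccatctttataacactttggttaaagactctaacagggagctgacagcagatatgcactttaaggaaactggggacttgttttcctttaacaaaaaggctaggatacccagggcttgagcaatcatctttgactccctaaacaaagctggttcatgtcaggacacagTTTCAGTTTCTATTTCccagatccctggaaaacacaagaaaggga
Ifit3 (chr19:34583279-34583528, plus strand): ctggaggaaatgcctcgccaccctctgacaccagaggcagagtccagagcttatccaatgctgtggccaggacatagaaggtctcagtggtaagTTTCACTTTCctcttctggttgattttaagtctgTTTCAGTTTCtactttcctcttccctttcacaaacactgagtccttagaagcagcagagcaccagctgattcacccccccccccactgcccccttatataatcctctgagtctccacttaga
The motif starts 59 bases before the transcription start in *Gbp2*. In *Gbp3* 2 overlapping matches start 45 and 39 bases before it, and in *Ifit3* 2 matches start 156 and 122 bases before it. *Gbp2* and *Gbp3*, interferon-induced GTPases, were at 30.4 and 26.04 and at 33.8 and 28.3 CPM in RA. In NRRA they were at 90.3 and 97.9 and at 100.2 and 104 CPM (1.75 ± 0.07 and 1.73 ± 0.07). *Ifit3*, an interferon-induced protein that restricts viral RNA, was at 67.5 and 60.5 CPM in RA and 199.7 and 223 in NRRA (1.73 ± 0.07), and its near-identical copy *Ifit3b* changed by 1.83, so reads of this pair may be exchanged. On both strands of the same windows, this motif was present in 17 of the 30 list members with a sequence (56.7%), all of which rose, in 3.66% of the 13288 tested genes with a window and in 3.44% of the 32851 windows. As 41 of all 42 tested list members rose, the rise of these 17 does not set them apart. A match describes the letters of the window and not binding.

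Class I antigen presentation, an arm of the interferon programme, rose with it. Of 16 genes 15 rose and 0 fell, with a median of 0.651. *H2-K1*, a classical class I heavy chain, was at 411 and 392 CPM in RA and 707 and 709 in NRRA (0.82 ± 0.04). The non-classical gene *H2-T23* rose by 1.28, the immunoproteasome subunit *Psmb9* by 1.24 and the peptide transporter *Tap1* by 0.91. Class I genes are close paralogs, so reads may be divided among them.

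DNA replication and mitosis genes had medians near 0 between RA and NRRA. Of 45 replication genes 6 rose, 10 fell and 0 were called, with a median of -0.00288. Leaving out RA replicate 1 or NRRA replicate 1 left 6 that fell, and leaving out RA replicate 2 or either NRRA library left 3 that rose. The median lay between -0.0332 without NRRA replicate 2 and 0.0254 without NRRA replicate 1, and was -0.0438 with the GC and length dependence removed. Without RA 31 fell and 4 rose, with a median of -0.244. The difference between the effects was positive for 24 genes and negative for 2. *Rrm2*, a ribonucleotide reductase subunit, was at 71.98 and 71.4 CPM in RA and 56.99 and 59.8 in NRRA (-0.29 ± 0.05), against 79.1 and 76.9 in Veh and 42.5 and 42.03 in NR (difference 0.59 ± 0.08). *Mcm2*, a subunit of the replicative helicase, was at 236 and 230.1 CPM in RA and 239 and 239 in NRRA, and at 278 and 252 in Veh and 211 and 210.0 in NR (difference 0.37 ± 0.06). The E2F site TTTCCCGC was present in the same windows of 6 of 36 replication genes (16.7%) and in 2.14% of all tested genes with a window. Of these 6 genes 0 rose and 0 fell between RA and NRRA. Of 38 mitosis genes 7 rose and 8 fell (median -0.00803), against 6 and 23 without RA (median -0.284), and 14 had a more positive and 0 a more negative effect with RA. Between RA and NRRA, 0 mitosis genes rose and 5 fell without RA replicate 1, 1 rose and 4 fell without NRRA replicate 1, and 4 rose without NRRA replicate 2. The mitosis median was 0.00903 without RA replicate 2 and -0.0202 without NRRA replicate 1. With the GC and length dependence removed 4 rose and 14 fell (median -0.0752), and with DESeq2 1 rose and 6 fell. *Ccna2*, cyclin A2, was at 109 and 107 CPM in RA and 99.8 and 106 in NRRA, and at 105 and 113 in Veh and 73.96 and 75.7 in NR (difference 0.47 ± 0.07). Among 12 D-type cyclin, CDK and CDK inhibitor genes 7 fell and 0 rose, with *Cdkn2b*, the inhibitor p15, changing by -0.63 with RA and -1.45 without (difference 0.82 ± 0.07).

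**Figure D4:**
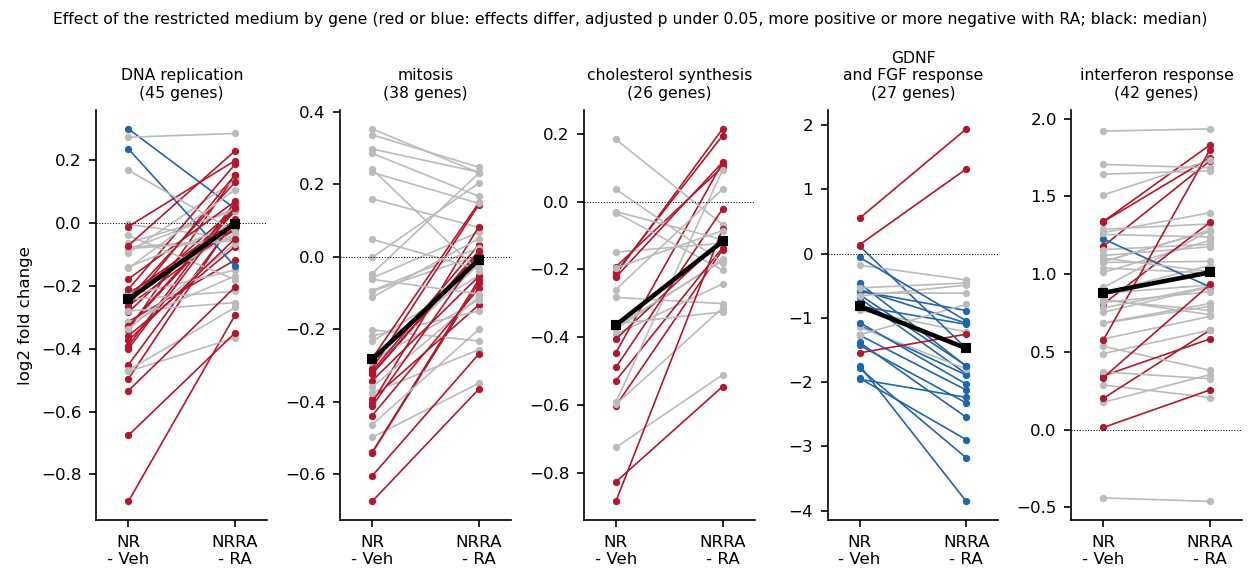
Log2 fold change of each tested gene of 5 lists, NR minus Veh on the left and NRRA minus RA on the right, with 1 line per gene and the list median in black. Red and blue lines mark genes with a more positive or more negative effect with RA, and the medians of DNA replication, mitosis and cholesterol synthesis move up toward 0 with RA while that of the GDNF and FGF response moves down.

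Matrix genes rose strongly. Of 44 collagen and matrix genes 38 rose and 6 fell, 19 and 2 by at least 2-fold, with a median of 0.827. *Aspn*, asporin of the small leucine-rich proteoglycans, was at 0.408 and 0.936 CPM in RA and 23.6 and 25.1 in NRRA (5.07 ± 0.15). *Col3a1*, fibrillar collagen III, was at 1140.0 and 1046 CPM in RA and 3741 and 3672 in NRRA (1.76 ± 0.04), and *Lox*, which cross-links collagen, rose by 2.01. Of the 16 fibroblast markers 8 rose and 7 fell, with changes of 1.66 for periostin, *Postn*, and -1.66 for *S100a4*, and their summed level was 18200 and 17000 CPM in RA and 26200 and 25400 in NRRA. The markers include collagen genes that the matrix list also holds, and the part of feeder cells in these changes was not tested. Without RA 35 matrix genes rose and 4 fell (median 0.919), and with RA 13 had a more positive and 13 a more negative effect.

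Contractile genes rose as well, with 12 of 18 rising, 1 falling and 6 called, and a median of 0.757, with 2 falling without RA replicate 2. Smooth muscle actin, *Acta2*, was at 55.4 and 54.6 CPM in RA and 879 and 878 in NRRA (3.999 ± 0.04), against 80.6 and 79.5 in Veh and 506 and 512 in NR. The effect with RA was larger by 1.33 ± 0.06. The actin nucleator gene *Lmod1* rose by 3.48 and the myosin light chain gene *Myl9* by 2.66. Matrix proteinases and their inhibitors divided, with 9 of 21 rising and 7 falling. The aggrecanase *Adamts5* went from 11.4 and 11.4 to 162 and 160.5 CPM (3.82 ± 0.07), while the plasminogen activator gene *Plau* fell by 3.27 and the stromelysin gene *Mmp3* fell by 1.91.

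Growth factor and cytokine genes changed in opposing groups. Of 11 Igf genes 9 rose and 2 fell, with *Igf1* rising by 2.79 and the binding protein gene *Igfbp3* by 2.19, while *Igfbp4* fell from 407 and 398 to 71.7 and 72.2 CPM (-2.48 ± 0.05). Of 29 chemokine and cytokine genes 17 rose and 9 fell, 9 and 5 of them by at least 2-fold. *Il33*, an alarmin cytokine, fell from 183 and 173 to 13.7 and 14.3 CPM (-3.66 ± 0.07), and its receptor *Il1rl1* fell from 542 and 547 to 47.4 and 43.8 CPM (-3.58 ± 0.06). *Il33* also fell without RA, from 124 and 143 CPM in Veh to 10.2 and 8.85 in NR, and the effects differed by 0.15 ± 0.12, which did not pass the test. *Spp1*, osteopontin, fell by 3.35, whereas the chemokine genes *Ccl20* and *Cxcl5* rose by 4.08 and 2.15. Immediate early genes, which serum and growth factors induce, had 15 of 23 falling and 2 rising (median -0.755, and -0.496 without NRRA replicate 1), including *Fosl1* (-2.21), *Egr1* (-1.75) and *Egr2* (-1.75). *Egr1*, *Egr2*, *Egr3*, *Fos* and *Ier3* were also counted in the GDNF and FGF response. One exact form of the serum response element, CCATA followed directly by TTAGG, was present in the same windows of 0 of 19 of these genes. It was present in 4 of all 13288 tested genes with a window (0.0301%). At that rarity its absence among 19 genes is uninformative, and other forms of the element were not searched. *Fos* was at 12.5 and 12.7 CPM in RA and 8.75 and 10.1 in NRRA (-0.41 ± 0.11). Of 18 tested keratin and cornified envelope genes 11 fell and 2 rose (median -1.76, 7 further genes below the count filter), among them *Sprr1a* (-3.41), *Krt13* (-3.35) and, in the other direction, *Sprr3* (5.098).

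Part of the calls were made both with and without RA. In NR against Veh, 1092 genes were called higher and 606 lower (5.33% and 2.96% of the genes tested). Of the 944 genes called higher in NRRA against RA, 540 were also called higher in NR against Veh, 57.2% of the first list and 49.5% of the second. Of the 753 called lower, 381 were shared, 50.6% and 62.9% of the lists. Calls in opposite directions were made for 2 genes higher and 5 genes lower with RA. The sign of the fold change without RA was the same for 899 of the 944 higher and 666 of the 753 lower genes. Over all genes tested, called or not, the 2 log2 fold changes had a Pearson correlation of 0.669. The comparisons rest on different libraries.

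The effects differed by at least 2-fold at an adjusted p under 0.05 in both directions, with a more positive effect with RA for 161 genes (0.786%) and a more negative one for 298 (1.46%). Of the 944 genes called higher 76 had a more positive and 19 a more negative effect, and of the 753 called lower 124 had a more negative and 9 a more positive effect. These splits are in part built in, because the difference contains the NRRA to RA change on which the genes were called. *Prss35*, a serine protease gene, was at 8.87 and 9.398 CPM in RA and 50.1 and 50.4 in NRRA but at 13.3 and 13.6 in Veh and 5.88 and 7.21 in NR, so that it rose with RA and fell without (difference 3.48 ± 0.14). *Agtr2*, an angiotensin receptor gene, went the other way, from 38.9 and 35.7 to 16.3 and 16.9 CPM with RA and from 10.3 and 11.5 to 47.8 and 48.3 without (difference -3.300 ± 0.11). *Lgr5*, a Wnt-potentiating receptor of stem cells, was at 0.0495 and 0.365 CPM in Veh and 11.7 and 12.9 in NR, and at 0.255 and 0.347 in RA and 0.715 and 1.03 in NRRA (difference -4.398 ± 0.73). Its Veh and RA levels were near the detection limit, as 3 counts stand for 0.104 to 0.156 CPM in these libraries. *Dio3*, which inactivates thyroid hormone, rose in both settings but less with RA (difference -2.54 ± 0.36). *Csn3*, a casein gene, fell from 10.7 and 12.3 CPM in RA to 4.79 and 5.26 in NRRA, was at 0.198 and 0.365 in Veh and had 0 counts in both NR libraries, so no ratio of the effects is given. More positive effects with RA were also found for the protocadherin gene *Pcdh10* (2.78), *A730049H05Rik* (2.498), *Tril* (2.41), *Itga8* (2.097) and the decarboxylase gene *Ddc* (2.003). More negative effects were found for the adhesion gene *Chl1* (-3.41), *Gm26771* (-2.49), *2010300C02Rik* (-2.37) and *Tbc1d30* (-2.31).

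**Figure D5:**
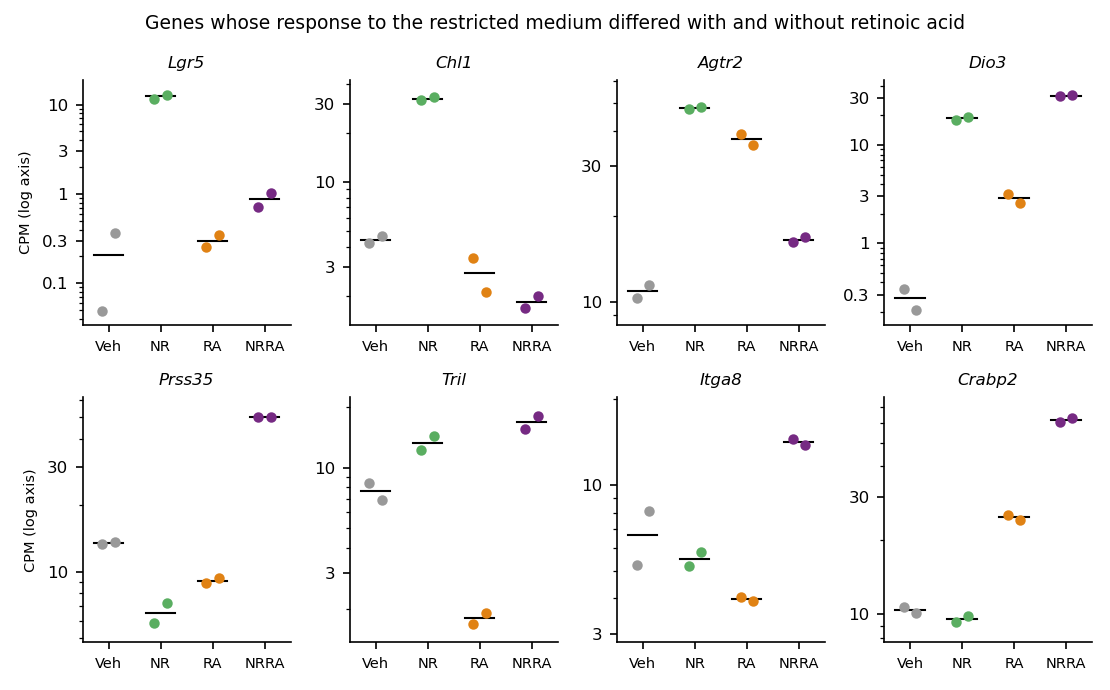
Level of 8 genes in each library, as CPM on a log axis, with Veh, NR, RA and NRRA from left to right and 1 point per library. *Lgr5* and *Chl1* are high in NR alone, *Agtr2* rises from Veh to NR and falls from RA to NRRA, and *Prss35* and *Crabp2* are highest in NRRA.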

How the data were processed

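RNA-seq of 8 libraries in 4 conditions was analysed. Per the labels, reads were demultiplexed with bcl2fastq, mapped with STAR (2.6.1c) and counted with featureCounts (1.6.4) on mm10. The authors deposited these counts per gene as whole numbers, without normalization. The use of the strand in counting is not given in the sources used here, so genes that overlap others are uncertain, among those named *Becn1*, *Bnip3*, *Ccnd1*, *Ctsl*, *Fosl1*, *Mt2*, *Rarb*, *S100a4*, *Spry1* and *Sycp3*.

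Low genes were removed with filterByExpr, libraries were scaled by TMM, and edgeR's quasi-likelihood fit used the 4 conditions of the 8 libraries together (R 4.3.3, edgeR 4.0.16, limma 3.58.1). NRRA against RA, NR against Veh and the difference between these effects were tested with Benjamini-Hochberg adjustment, and called genes passed an adjusted p of 0.05 and a 2-fold change. The SE is the absolute log2 fold change divided by the square root of F. With 4 residual degrees of freedom the biological coefficient of variation was 3.35%. A level of 1 CPM stands for 19.6 to 31.1 reads in the 4 libraries compared, so genes near 1 CPM have wide errors. In simulated data for NRRA against RA, edgeR recovered 45 of 50 genes changed 1.5-fold and 50 of 50 changed 2-fold. There were 9 false calls among 19936 genes. Changes were placed only in genes averaging 50 or more counts, in 50 genes per fold of 1.5, 2, 3 and 4. In the real data 665 of the 1697 called genes averaged fewer counts, and 40.3% of the genes tested passed the adjusted p. The simulation therefore does not describe calls at low counts or with so many genes changed.

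The members and gene lists were chosen with earlier results of these data known. Named genes are the 15 largest increases and decreases that average 50 or more counts and whose libraries do not overlap, up to 6 members of each list with the largest change, each list's first 3, genes the study names and the 8 largest differences between the effects in each direction. Outside this rule *Crabp2*, *Cyp26b1*, *Egr4*, *Lhx1*, *Prdx1*, *Spry1* and *Txnrd1* were chosen after their values were seen. Some genes that the rule names are not reported here. Sequences came from RefSeq on GRCm38.p6. DESeq2 1.42.0, other scaling, filters and fold limits, the replicate number as a block, leaving out each library and a trend with GC content and gene length were tried as alternatives. Figures were made with matplotlib 3.10.9.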

Additional observations from a re-analysis of the deposited data

Results flagged for a closer look

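For 40 of the genes named in the text the effect of the medium with RA (NRRA minus RA) differed from that without RA (NR minus Veh) by at least 2-fold at an adjusted p under 0.05 in the interaction test of edgeR over all 20477 genes, with 2 libraries per condition. Positive values mean a higher log2 fold change with RA.

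Among germ cell and growth factor genes the difference was negative for *Stra8* (-2.899), *Kit* (-1.12), *Gfra1* (-1.52), *Etv5* (-1.18), *Dusp6* (-1.39), *Egr1* (-1.105), *Egr2* (-1.29), *Egr3* (-2.11), *Egr4* (-1.59), *Nefm* (-1.16), *Sall1* (-1.23) and *Dmrtb1* (-1.796). It was positive for *Id4* (1.39) and *Spry1* (1.18). *Stra8* and *Kit* rose in both settings, and their levels without RA were low, at 1.14 and 1.51 CPM for *Stra8* and 6.34 and 6.31 CPM for *Kit* in Veh. Retinoid genes with a positive difference were *Tgm2* (1.81), *Crabp2* (1.46) and *Cyp26b1* (1.55).

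Among the other named genes the difference was positive for *Prss35* (3.48), *Pcdh10* (2.78), *A730049H05Rik* (2.498), *Tril* (2.41), *Itga8* (2.097), *Ddc* (2.003), *Acta2* (1.33), *Chrna1* (1.23) and *Ifitm1* (1.23). It was negative for *Lgr5* (-4.398), *Chl1* (-3.41), *Agtr2* (-3.300), *Dio3* (-2.54), *Gm26771* (-2.49), *2010300C02Rik* (-2.37), *Tbc1d30* (-2.31), *Plet1* (-1.85), *Lgr6* (-1.83), *Il1rl1* (-1.59), *Igfbp4* (-1.47), *Gm42793* (-1.42), *Aspn* (-1.26) and *Serpinb2* (-1.15). *Gm26771* overlaps *Sfrp2* and *A730049H05Rik* overlaps *Adamts9*, so their values are uncertain. *Lgr5* was near the detection limit in Veh and RA, so the size of its difference is uncertain as well.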

How the results depend on the processing

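Of 3122 recomputed log2 fold changes of the named genes over the alternatives, 3011 kept their direction and their side of the threshold, 80 no longer passed the test, 13 newly passed and 18 reversed. Of 750 recomputed list medians 129 moved by more than the spread between libraries and 32 changed sign, the latter in lists with medians between -0.00803 and 0.0782. The counts of called genes moved with the limits set. For NRRA against RA there were 560 higher and 436 lower genes with an average of 50 or more counts, 1803 and 1286 with a fold limit of 1.5, and 4283 and 3971 with no fold limit. DESeq2 called 753 and 647, of which 753 and 635 were shared with edgeR, and leaving out 1 library gave 851 to 949 higher and 681 to 799 lower. Calls shared with NR against Veh were 1089 higher and 736 lower with a fold limit of 1.5, 2682 and 2832 with no fold limit, and 250 lower with an average of 50 or more counts, and 491 to 531 higher and 354 to 369 lower without 1 library.

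Differences between the effects numbered 101 positive and 180 negative with DESeq2, 416 and 612 with a fold limit of 1.5, 1304 and 1348 with no fold limit, and 102 positive with an average of 50 or more counts. They ranged from 117 to 169 positive and from 223 to 371 negative without 1 library. The cause of these shifts was not tested beyond the limits themselves. The replicate number as a block gave 936 higher and 745 lower genes, *Zbtb16* (0.16) and *Chl1* (-0.53) missed the test under it, and replicate numbers did not pair the libraries (correlation of deviations between RA and NRRA -0.0271, and -0.074 to 0.0904 over all pairs of conditions).

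Reversals occurred in 6 genes with values near 0, of which *Dazl* alone had passed the test (0.13, edgeR adjusted p = 0.0302). *Ugt8a* was at -0.01587 with DESeq2, -0.01855 with its size factors in edgeR, -0.01389 with an average of 50 or more counts, -0.009235 with 4 libraries alone, -0.1182 with the GC and length trend removed and between -0.08056 and 0.07544 without 1 library. With that trend removed *Bcl11a* was at -0.03836, *Becn1* at -0.0196, *Dazl* at -0.0076 and *Mcm2* at -0.005496. Without 1 library *Bcl11a* ranged from -0.1781 to 0.3134 and *Spo11* from -0.4079 to 0.2834.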

Other observations

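Lists that the text above does not describe gave these values for NRRA against RA. Of 25 p53 targets 10 fell and 7 rose (median 0.0348, but -0.0425 without RA replicate 2, -0.0616 without NRRA replicate 2 and -0.0235 with the GC and length dependence removed), and the death receptor gene *Fas* was at 16.3 and 17.4 CPM in RA and 41.3 and 40.4 in NRRA (1.27 ± 0.07). *Trp53* fell by 0.45 and the p53 inhibitor gene *Mdm2* by 0.40 on the log2 scale, while *Cdkn1a*, which encodes p21, was at 569.6 and 520.2 CPM in RA and 489 and 497 in NRRA. Of 16 Bcl2 family genes 6 fell and 2 rose (median -0.096, and -0.185 without NRRA replicate 2), and 1 rose without RA replicate 1 or without NRRA replicate 1, with the pro-apoptotic gene *Bbc3* rising by 0.85 and *Bok* falling by 0.53. Of 18 clock genes 9 rose and 3 fell (median 0.333). The output gene *Dbp* rose by 0.69 and *Per2* by 0.39, though *Per2* missed the test with DESeq2 and without RA replicate 2 (0.30), while the repressor gene *Bhlhe40* fell by 1.16.

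Of 28 genes of the unfolded protein response and chaperones 8 fell and 4 rose (median -0.00178, between -0.0329 without RA replicate 2 and 0.014 without RA replicate 1), and 2 rose with DESeq2, without RA replicate 2 or without NRRA replicate 2. The endoplasmic reticulum chaperone *Hspa5* was at 464 and 458 CPM in RA and 449.8 and 448 in NRRA, and *Herpud1*, a gene of protein degradation there, rose by 0.62. Of 9 DNA methylation genes 3 rose and 2 fell (1 fell without either RA library or NRRA replicate 2), including the dioxygenase gene *Tet3* (0.74) and the de novo methyltransferase gene *Dnmt3b* (0.44).

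Genes of BMP and Wnt signalling divided. Of 15 BMP targets and regulators 6 rose and 6 fell (median 0.136, and 0.0819 without RA replicate 2), whereas without RA 3 rose and 8 fell (median -0.366). *Bmp4* rose by 2.22 ± 0.10. *Bmp2* fell by 2.39 and the BMP antagonist gene *Grem1* fell by 1.71. *Id3*, a direct target, changed by 0.54 with RA and -0.44 without (difference 0.98 ± 0.09). Of 17 Wnt targets 6 fell and 4 rose (median -0.0717, -0.0371 without RA replicate 1 and -0.0225 without NRRA replicate 1). *Axin2*, a negative feedback gene, rose by 0.63, and *Lgr6*, a receptor for R-spondins, fell from 53.7 and 50.6 to 10.5 and 11.5 CPM (-2.24 ± 0.08).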
